A study of Caenorhabditis elegans with 6 samples.

Results

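The nuclear genes mua-3, sulp-6, dlk-1, gcy-18, Y73B6BL.12 and Y47G6A.13, were followed in germline RNA of Caenorhabditis elegans with and without ADR-2. They are 6 of the 18206 genes in the expression table, and all 6 were among the 9779 genes that passed a minimum mean of 10 normalized counts. They were selected by gene identifier because their counts in these same libraries were higher in adr-2(-), so the values that follow describe that difference and carry no test of it. Read counts were measured in 3 adr-2(-) and 3 wild type libraries of poly(A)-selected RNA, each from germlines dissected out of young adults, and the labels call the replicates separate samples. The adr-2(-) strain carries the deletion allele adr-2(ok735), and wild type is the laboratory strain N2. Both strains were raised at the same temperature. Both are whole-animal genotypes, so ADR-2 was missing from every tissue of the mutant and not from the germline alone.

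ADR-2 is the catalytically active adenosine deaminase acting on RNA of C. elegans, which converts adenosine to inosine in double-stranded RNA. Inosine is read as guanosine, so an edited position appears as an A-to-G mismatch in sequencing reads. The named genes belong to different pathways and are mostly known from tissues outside the germline. MUA-3 is a large transmembrane protein with EGF repeats that ties the epidermis to the overlying cuticle where body wall muscle pulls on it. SULP-6 belongs to the SLC26 family of anion transporters. DLK-1 is the upstream kinase of a neuronal MAP kinase cascade, kept low by the ubiquitin ligase RPM-1 and known for its part in synapse formation and axon regrowth. GCY-18 is a receptor guanylyl cyclase that acts with GCY-8 and GCY-23 in the thermosensory AFD neurons.

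The libraries held 33658937 to 38310069 reads on genes in adr-2(-), against 44991286 to 96397215 in wild type. The count of adr-2 itself followed the labels, at 29.2, 61.0 and 35.6 normalized counts in adr-2(-), against 3020, 2822 and 2852 in wild type. A normalized count is the number of reads on a gene divided by 1 scaling factor per library, and 1 read was worth between 1.15 and 1.36 normalized counts in adr-2(-), against 0.483 to 1.05 in wild type. Germline markers such as gld-1, a translational repressor, were abundant in every library, and the sum of 12 germline markers ranged between 349960 and 404850 in adr-2(-), against 387950 to 395360 in wild type. The library of adr-2(-) replicate 1 stood apart, since the sum of 10 body wall muscle markers was 22692 there, against 7126 and 4798 in the other adr-2(-) libraries and 4814 to 7190 in wild type. The sum of 10 intestinal markers was 9733 in that library, against 1812 and 1463 in the other adr-2(-) libraries and 1321 to 2263 in wild type. In bulk RNA, more cells of a type and more RNA per cell cannot be told apart.

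The muscle attachment gene mua-3 had 474, 590 and 563 normalized counts in adr-2(-), against 101, 94.7 and 114 in wild type. The lowest adr-2(-) library was 4.15 times the highest wild type library, the widest gap between strains among the 6 genes. The means were 542 ± 60.9 in adr-2(-) and 103 ± 9.96 in wild type (SD, n = 3 each), a log2 fold change of 2.38 (SE 0.16) in limma on log2(normalized count + 1). On this scale a change of low counts is understated. The gene (WBGene00003482) spans 22833 bases on the plus strand of chromosome III, 10160697 to 10183529 in the WBcel235 assembly, with 36 distinct coding segments over 2 transcripts. It starts 2.93 Mb past the end of adr-2 on the same chromosome.

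The anion transporter gene sulp-6 had the second highest log2 fold change of the set. It had 77.5, 107 and 114 normalized counts in adr-2(-), against 14.7, 21.2 and 13.5 in wild type. These rest on 239 reads over the 3 adr-2(-) libraries and on 72 reads over the wild type ones. Its means were 99.5 ± 19.3 in adr-2(-) and 16.5 ± 4.15 in wild type (SD, n = 3 each), a log2 fold change of 2.53 (SE 0.36). sulp-6 (WBGene00020914) lies on the plus strand of chromosome I, 3287336 to 3293171, with 3 transcripts.

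The kinase gene dlk-1 was the most abundant of the 6 by normalized count in both strains. It had 653, 665 and 1108 normalized counts in adr-2(-), against 229, 245 and 245 in wild type. Replicate 3 of adr-2(-) was above the other adr-2(-) libraries, which differed little from each other, whereas the wild type libraries had a coefficient of variation of 3.78%. The log2 fold change was 1.70 (SE 0.20), and leaving out adr-2(-) replicate 3 gave 1.45. dlk-1 (WBGene00001008) lies on the minus strand of chromosome I, 12565800 to 12572801, with 5 transcripts, and 96 of its exon bases are shared with mec-19 on the opposite strand, which had at most 6.9 normalized counts in any library.

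The guanylyl cyclase gene gcy-18 varied least between replicates. It had 102, 102 and 89.6 normalized counts in adr-2(-), against 25.3, 23.7 and 24.2 in wild type, with coefficients of variation of 7.1% in adr-2(-) and 3.32% in wild type. The ratio of the means was 4.01 and the log2 fold change 1.96 (SE 0.29). gcy-18 (WBGene00001543) is on the plus strand of chromosome IV, 12860097 to 12865956, with 1 transcript.

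Y73B6BL.12 varied most. It had 127, 279 and 418 normalized counts in adr-2(-), against 22.1, 49.7 and 36.8 in wild type. The adr-2(-) libraries differed among themselves by up to 3.29 times and the wild type libraries by up to 2.25 times, yet the lowest adr-2(-) value was 2.55 times the highest wild type value. Its log2 fold change of 2.80 (SE 0.45) was the highest of the set and also the least precise. The gene (WBGene00022236) is annotated on the minus strand of chromosome IV, 6317047 to 6317457, as 1 exon of 411 bases.

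Y47G6A.13 had 116, 151 and 153 normalized counts in adr-2(-), against 44.2, 32.4 and 20.3 in wild type. Here the wild type libraries were the more variable, with a coefficient of variation of 37.0%, against 14.97% in adr-2(-). Its log2 fold change was 2.13 (SE 0.34). Y47G6A.13 (WBGene00021639) lies on the minus strand of chromosome I, 3439364 to 3442222, within the span of nefr-1, which runs on the opposite strand and shares 0 exon bases with it. The host gene nefr-1 moved the other way, with 7389, 7373 and 7584 normalized counts in adr-2(-), against 8248, 7826 and 8669 in wild type, with a log2 fold change of -0.15 (SE 0.06) that was not called. The libraries were stranded, but the sources used here do not state whether reads were assigned to genes by strand, so a split of reads between such overlapping genes stays uncertain.

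**Figure D1:**
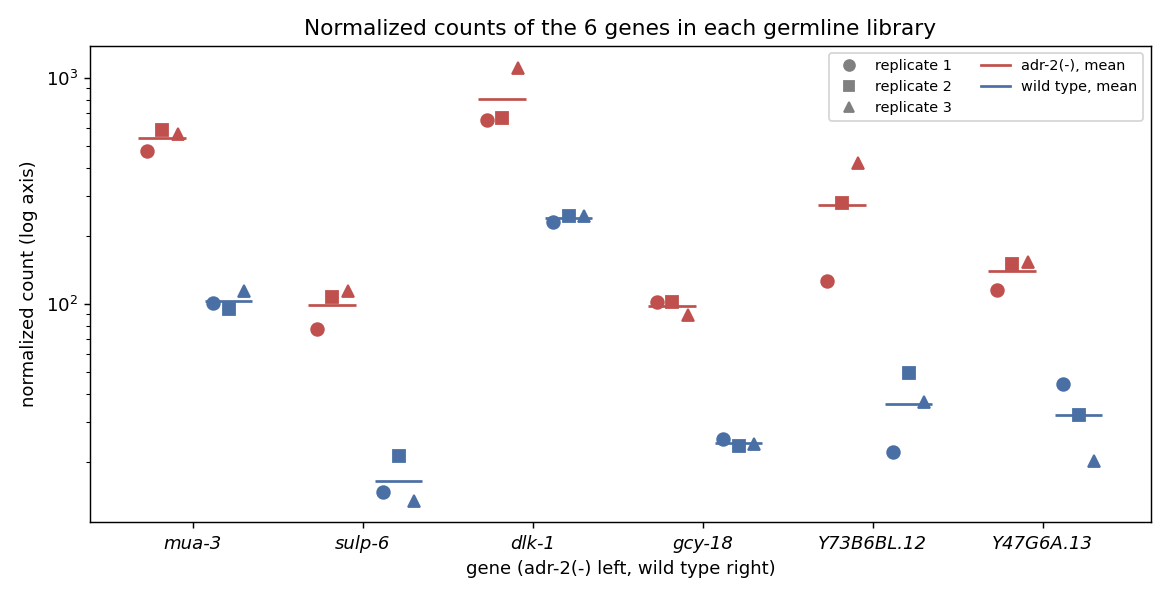
Normalized counts (log axis) of the 6 genes in each library, with adr-2(-) left of wild type for each gene, a marker shape per replicate and a line at the mean of each strain. Every adr-2(-) library lies above every wild type library for each gene, by the smallest factor in Y73B6BL.12 (2.55) and the largest in mua-3 (4.15).

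In all 6 genes every adr-2(-) library was above every wild type library, an arrangement found in 9.5% of the genes tested and part of what selected these 6. A gene was called in limma where its adjusted p was 0.05 or less and its log2 fold change was 0.5 or more in size, which 20 genes (0.205%) passed as higher in adr-2(-) and 9 (0.092%) as lower. Of the 20 higher genes, 6 are encoded by the mitochondrial genome and 14 by the nuclear genome, and the 6 genes described here are among the 14. The only other nuclear gene called with a log2 fold change above that of dlk-1 was cls-3, at 3.78 (SE 0.19). Just below the set came seld-1, with 1070, 1442 and 1354 normalized counts in adr-2(-), against 656, 665 and 729 in wild type, and a log2 fold change of 0.91 (SE 0.12). No threshold was given for the set, and the gap between dlk-1 at 1.70 and seld-1 holds no other called nuclear gene.

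Most genes with a high fold change were not called, and many of them were scarce. Of all tested genes, 131 had a log2 fold change at least as high as dlk-1, with a median of 19.9 normalized counts over the libraries. Only 9 of these were called, and in 92 of them adr-2(-) replicate 1 was the highest adr-2(-) library. The 6 genes had another order among replicates, since adr-2(-) replicate 1 was the lowest adr-2(-) library in 5 of them and the highest in 0. In dlk-1 that order rested on 653 against 665 normalized counts. The 6 were selected on these same values, and genes raised mainly in 1 library tend to go uncalled. The contrast in order therefore follows in part from the selection and is no test. Without adr-2(-) replicate 1, the log2 fold changes were 2.47 for mua-3, 2.695 for sulp-6, 1.84 for dlk-1, 1.93 for gcy-18, 3.28 for Y73B6BL.12 and 2.26 for Y47G6A.13.

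Set side by side, the 6 genes differed in how far their calls held with 1 library fewer and with another tool. This count cannot support the selection that rested on it. Over the 6 fits that each left out 1 library, mua-3 was called in 6, dlk-1 in 4, sulp-6 in 2, and Y73B6BL.12 and Y47G6A.13 in 1 each. gcy-18 was called in 0 of them, with log2 fold changes between 1.93 and 2.02. Over all genes tested, these fits called between 8 and 64 genes in either direction, against 29 with all libraries. Each such fit changes both the number of samples and the libraries that remain, which cannot be told apart here. On whole reads recovered from the normalized counts, edgeR's quasi-likelihood test called 4 of the 6, leaving out Y73B6BL.12 and Y47G6A.13, where 0.136% of the genes tested were called higher. DESeq2 called all 6, where 0.959% were called higher. The lowest log2 fold change over the single-library fits was 1.45 for dlk-1 without adr-2(-) replicate 3, and the highest was 3.28 for Y73B6BL.12 without adr-2(-) replicate 1.

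**Figure D2:**
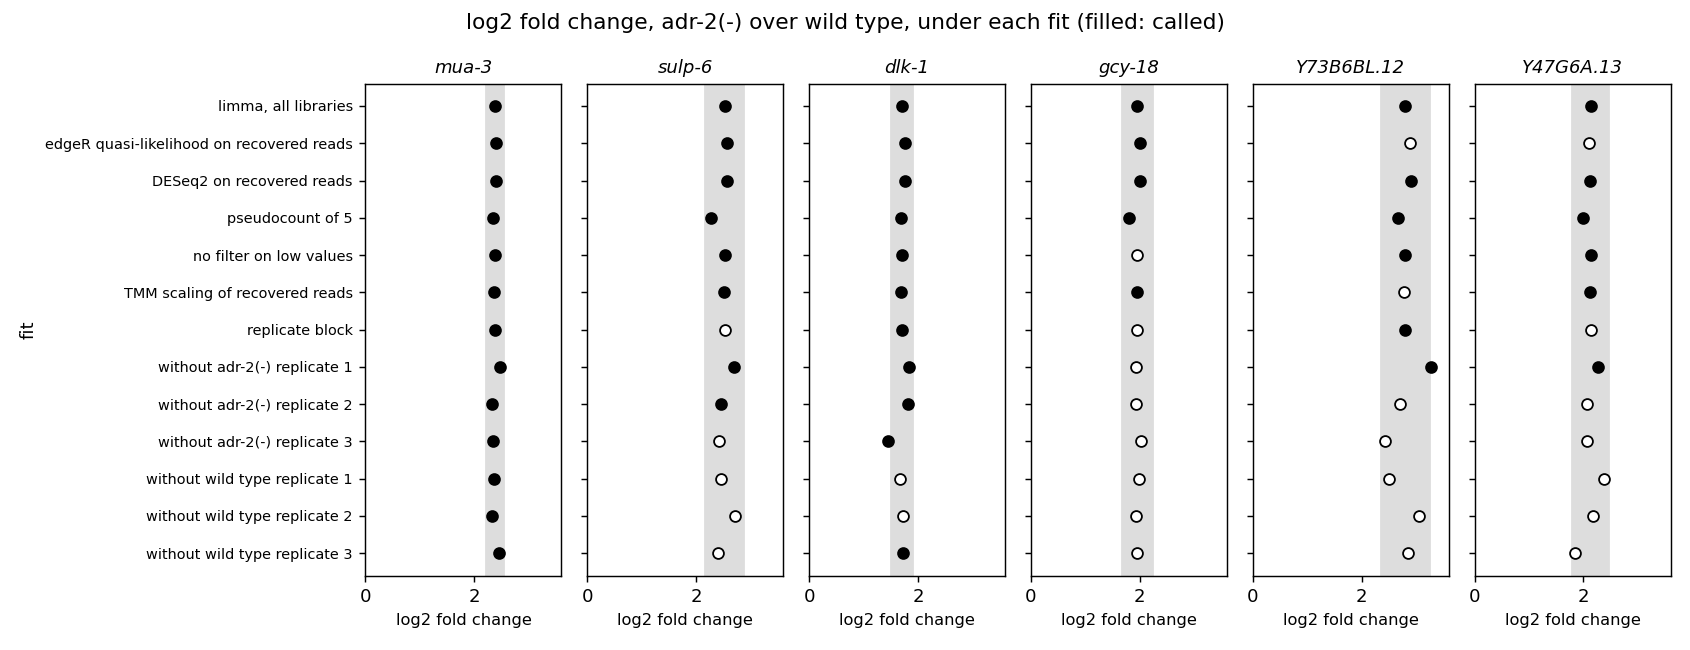
Log2 fold change (horizontal axis) of each gene, adr-2(-) over wild type, under limma with all libraries and 12 other fits (rows), with filled points where the gene was called and a grey band of 1 SE around the limma value. The lowest value is 1.45, in dlk-1, and mua-3 is filled in each row while gcy-18 is open in each row that leaves out a library.

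Per length of exon, the 6 genes differed widely in abundance. In adr-2(-), Y73B6BL.12 averaged 669 normalized counts per kb, dlk-1 256, Y47G6A.13 92.2, mua-3 45.0, sulp-6 28.7 and gcy-18 26.2. In wild type the order was Y73B6BL.12 at 88.1, dlk-1 at 76.0, Y47G6A.13 at 21.3, mua-3 at 8.57, gcy-18 at 6.54 and sulp-6 at 4.77 normalized counts per kb. Libraries of Y73B6BL.12 and dlk-1 overlapped in both strains, and those of sulp-6 and gcy-18 overlapped in adr-2(-), so neither pair can be ordered there. The remaining neighbours in each order did not overlap. Per kb, mua-3 stood above 59.5% of the genes in the table in adr-2(-) and above 46.4% in wild type, and for sulp-6 these shares were 56.0% and 39.6%.

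For the epidermal and muscle attachment pathway of mua-3, 15 genes were listed, of which 14 were in the table and 13 were tested. None was called in either direction, and the median log2 fold change of the 13 was 0.38, against 0.00 over all genes tested. The closest relative of mua-3 in the list was mup-4, which encodes another transmembrane attachment protein of the epidermis. mup-4 had 301, 48.8 and 63.2 normalized counts in adr-2(-), against 35.8, 47.3 and 39.7 in wild type, and its log2 fold change of 1.25 (SE 0.60) was not called by limma or edgeR, whereas DESeq2 called it. The basal attachment receptor gene let-805 had 328, 63.7 and 69.0 normalized counts in adr-2(-), against 35.8, 71.0 and 60.0 in wild type. The intermediate filament gene ifb-1 had 517, 46.1 and 40.2 normalized counts in adr-2(-), against 22.1, 43.5 and 71.6 in wild type. In 10 of the 13 genes the highest of all 6 libraries was adr-2(-) replicate 1, the library with the high muscle and intestine markers. The share of all tested genes that were highest in that library was not counted. mua-3 was at its lowest adr-2(-) value there, an order that follows in part from its selection.

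The spectraplakin gene vab-10, the most abundant of the attachment list, had 5491, 7527 and 7617 normalized counts in adr-2(-), against 5400, 5021 and 7670 in wild type. A second list for mua-3 held 10 genes of the apical extracellular matrix with EGF, ZP or leucine-rich repeat domains, of which 5 were tested and 0 called. Among them dex-1, which encodes a matrix protein with a nidogen domain, had 44.4, 54.3 and 52.9 normalized counts in adr-2(-), against 34.7, 37.2 and 23.2 in wild type, with a log2 fold change of 0.68 (SE 0.35). noah-2 went the other way, with 39.4, 40.7 and 40.2 normalized counts in adr-2(-), against 44.2, 49.7 and 65.8 in wild type. In neither of these did the strains overlap. They overlapped in egg-6, the most abundant gene of this list, with a log2 fold change of -0.07 (SE 0.08). Of 14 epidermal markers, 13 were in the table, 7 were tested and 0 were called. The cuticle collagen gene col-19 had 2945, 728 and 478 normalized counts in adr-2(-), against 414, 619 and 543 in wild type, with the highest value in adr-2(-) replicate 1. The epidermal transcription factor gene elt-3 had 54.6, 18.99 and 19.54 normalized counts in adr-2(-), against 0, 14.97 and 14.52 in wild type, with the strains apart. The cuticle collagen genes dpy-7 and rol-6 stayed at no more than 9.5 normalized counts in every library. The summed epidermal list, most of it lin-26 and nhr-23, ranged between 10347 and 12470 in adr-2(-), against 9383 to 10562 in wild type. The part of epidermal RNA in the mua-3 values was not tested.

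For sulp-6, the list held 11 other transporters of the SLC26 and SLC4 families, of which 6 were tested and 0 called, with log2 fold changes between -0.45 and 0.97. The highest was that of its family member sulp-8, which had 34.3, 62.4 and 42.5 normalized counts in adr-2(-), against 16.8, 38.2 and 17.4 in wild type. The strains overlapped in sulp-8, and the SE of its log2 fold change was 0.46. The SLC4 family gene abts-1 was the abundant one, with 5986, 6470 and 6541 normalized counts in adr-2(-), against 6445, 6013 and 5864 in wild type. sulp-1, sulp-2, sulp-3 and sulp-5 were under the minimum mean.

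For dlk-1, 18 other genes of the DLK-1 and JNK kinase cascades were listed, of which 16 were tested and 0 called. In 7 of the 16, every adr-2(-) library was above every wild type library, against 9.5% of all genes tested, and in 0 every adr-2(-) library was below, against 9.26%. Of the cascade downstream of DLK-1, the p38 family MAP kinase gene pmk-3 had 92.7, 104.4 and 106.9 normalized counts in adr-2(-), against 72.6, 52.6 and 53.2 in wild type, with a log2 fold change of 0.77 (SE 0.26). The MAP kinase kinase gene mkk-4 had 97.8, 89.5 and 87.3 normalized counts in adr-2(-), against 44.2, 66.6 and 63.9 in wild type, with a log2 fold change of 0.66 (SE 0.27). Both kept the strains apart without passing the adjusted threshold.

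The transcription factor gene cebp-1, at the end of the DLK-1 cascade, had 54.6, 52.9 and 56.3 normalized counts in adr-2(-), against 43.1, 44.9 and 50.3 in wild type. The kinase gene mak-2, between PMK-3 and CEBP-1, had 232, 221 and 195 normalized counts in adr-2(-), against 227, 244 and 216 in wild type, with the strains overlapping. rpm-1, whose product limits DLK-1, had 182, 231 and 241 normalized counts in adr-2(-), against 185, 205 and 242 in wild type, also overlapping. The more abundant unc-16, a JNK scaffold gene, and ppm-2, a phosphatase gene, had log2 fold changes of 0.12 and 0.11 with the strains apart. max-2, the most abundant gene of the list, and fsn-1 had log2 fold changes of 0.02 and 0.01 with the strains overlapping. Over the 16 genes the median log2 fold change was 0.11, well under the 1.70 of dlk-1.

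For gcy-18, 16 genes of thermosensory and cGMP signalling were listed, of which 15 were in the table, 8 were tested and 0 were called. Of its partners in AFD neurons, gcy-23 had 22.9, 29.8 and 26.4 normalized counts in adr-2(-), against 31.6, 27.5 and 24.2 in wild type, and gcy-8 had 0 to 5.75 in adr-2(-), against 0.968 to 8.42 in wild type, under the minimum. The transcription factor gene ttx-1, which sets AFD identity, had at most 1.45 normalized counts in any library, and 3 reads were worth up to 4.07, so no difference was detectable at this depth. The cGMP-dependent kinase gene egl-4 and the phosphodiesterase gene pde-2 were abundant, with log2 fold changes of 0.02 and 0.12. Of 24 other genes with a gcy name, 7 were tested and 0 called, with a median log2 fold change of -0.12. The most abundant of these, gcy-28, had 6886, 5808 and 6433 normalized counts in adr-2(-), against 5750, 5660 and 5662 in wild type, with a log2 fold change of 0.16 (SE 0.07) with the strains apart. Beside gcy-18 and dlk-1, the sum of 14 neuronal markers was 4377, 5249 and 4450 in adr-2(-), against 4561, 4707 and 4720 in wild type. Most of it was snb-1, a synaptobrevin gene, so the sum says little about the other markers. Of the 12 tested, 0 were called and 9 had a log2 fold change above 0, with a median of 0.35. In 9 of the 12 the highest of all 6 libraries was adr-2(-) replicate 1, with no count over all tested genes to set beside it. The part of neuronal RNA in the gcy-18 and dlk-1 values was not tested.

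**Figure D3:**
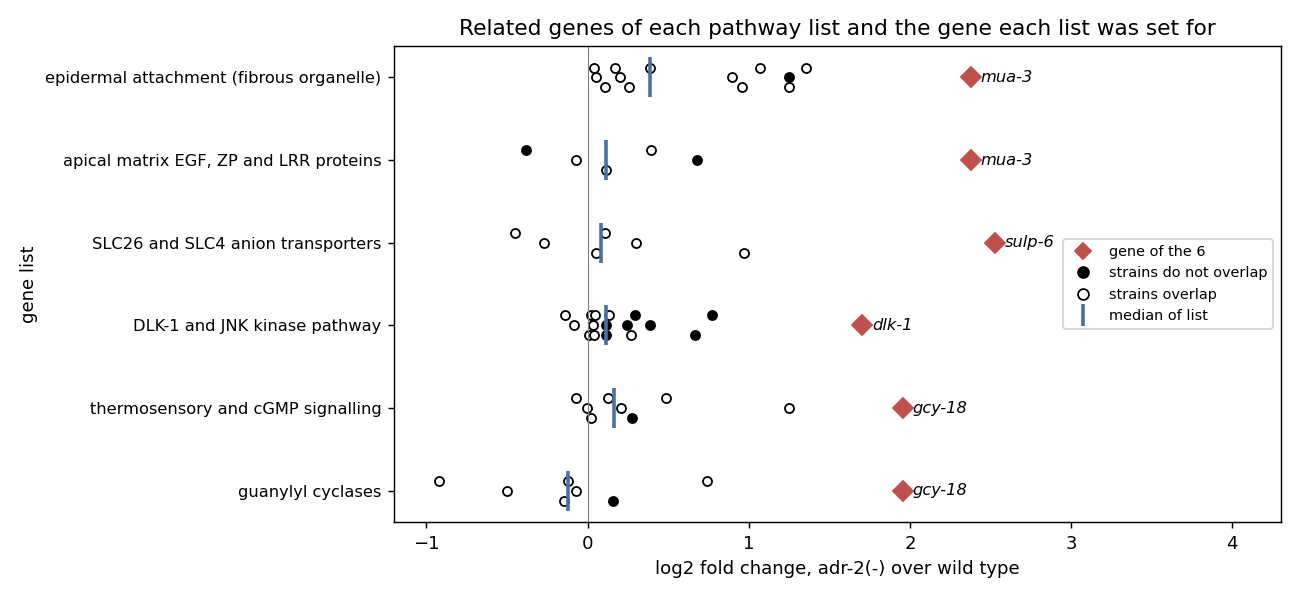
Log2 fold change (horizontal axis, adr-2(-) over wild type) of the tested genes in 6 pathway lists (rows), as circles filled where the strains did not overlap, with a bar at each list median and a diamond for the gene each list was set for. The diamonds lie at 1.70 or more, and the highest circle is mua-6 of the attachment list at 1.35.

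Over all lists, 54 different genes were tested and 0 were called by limma, with 3 at an unadjusted p under 0.05, a level reached by 12.5% of all genes tested. On the recovered reads edgeR called 0 of them and DESeq2 called 1, mup-4. The strains stood apart upwards in 11 of the 54, against 9.5% of all genes tested, and downwards in 1, against 9.26%, and the median log2 fold change was 0.13.

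Genes beside the 6 on the chromosome were examined for changes of the same kind. Within 20 kb on either side, 25 other genes were tested, and limma called 0 of them, with 1 at an unadjusted p under 0.05 against 12.5% of all genes tested, while edgeR and DESeq2 each called 0. Their median log2 fold change was 0.10. The strains stood apart upwards in 2 of the 25, lsm-8 and M02B1.3, against 9.5% of all genes tested, and downwards in 3, against 9.26%. These 3 were all near Y47G6A.13. Around Y47G6A.13, the separase gene sep-1 and the mismatch repair gene msh-6 were, like nefr-1, below wild type in every adr-2(-) library, with log2 fold changes of -0.14 (SE 0.07) and -0.07 (SE 0.06). The gene nstp-5, which ends 169 bases upstream of gcy-18 on the same strand, had 2622, 3205 and 3035 normalized counts in adr-2(-), against 3346, 3194 and 3307 in wild type. On the other side, clec-186 starts 153 bases past the end of gcy-18 and had 12.7, 12.2 and 5.75 normalized counts in adr-2(-), against 2.10, 2.41 and 7.74 in wild type, under the minimum mean. Past the end of sulp-6 by 13 bases, W01B11.6 on the opposite strand had 35.6, 10.9 and 18.4 normalized counts in adr-2(-), against 10.5, 6.76 and 23.2 in wild type.

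The highest log2 fold changes among the neighbours were those of W02D9.7 and W02D9.6, near dlk-1, at 1.60 (SE 1.64) and 1.03 (SE 1.61). Both rested on adr-2(-) replicate 1, since W02D9.7 had 207, 5.43 and 2.30 normalized counts in adr-2(-), against 0, 4.83 and 26.1 in wild type. Beyond 20 kb, a window of 50 kb added 1 called gene, W02D9.4 near dlk-1, which was lower in adr-2(-). sulp-6 and Y47G6A.13 lie 146 kb apart on chromosome I, and the 16 tested genes between them had log2 fold changes between -0.34 and 0.67. Of those 16, limma, edgeR and DESeq2 called 0, and 2 had an unadjusted p under 0.05 in limma, the same share as the 12.5% of all genes tested.

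**Figure D4:**
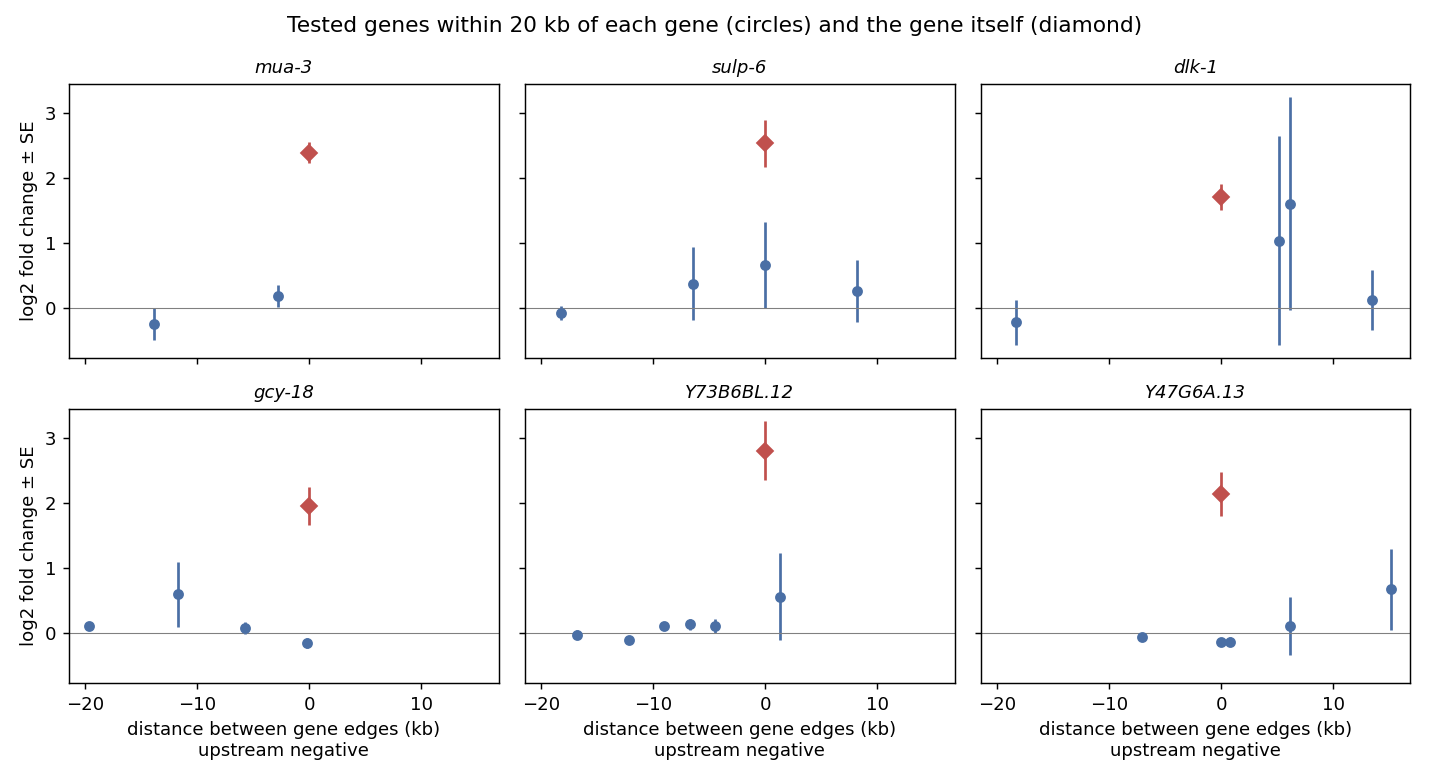
Log2 fold change with its SE (vertical axis) against the distance in kb between gene edges (horizontal axis, upstream negative) for tested genes within 20 kb of each of the 6 genes, which are shown as diamonds at 0. The circles lie between -0.26 and 1.60, and the 2 with the widest SE beside dlk-1 are W02D9.6 and W02D9.7.

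The genes most like each of the 6 across the libraries were ranked by Pearson's r of log2(normalized count + 1) over the 6 libraries, as a description. mua-3 was most like cls-3 (r = 0.993), gcy-18 (0.991) and gly-9 (0.990). gcy-18 was most like mua-3 (0.991), cec-2 (0.991) and F54H12.5 (0.990). sulp-6 was most like nex-2 (0.995), cye-1 (0.992) and rhgf-2 (0.990), and dlk-1 was most like Y73B3A.4 (0.991), fem-3 (0.989) and WBGene00012058 (0.989). Y73B6BL.12 was most like T28F4.4 (0.999), fath-1 (0.996) and pgap-3 (0.995), and Y47G6A.13 was most like gly-20 (0.997), C17H11.6 (0.993) and C04F5.9 (0.992). Likeness of pattern is not likeness of size, since cye-1 with 13651, 13878 and 14284 normalized counts in adr-2(-), against 12094, 12383 and 11762 in wild type, had a log2 fold change of 0.21. Between the 6 genes themselves r ranged between 0.880, for Y47G6A.13 with Y73B6BL.12, and 0.991, and all points share the same 6 libraries and the strain difference that selected the genes.

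**Figure D5:**
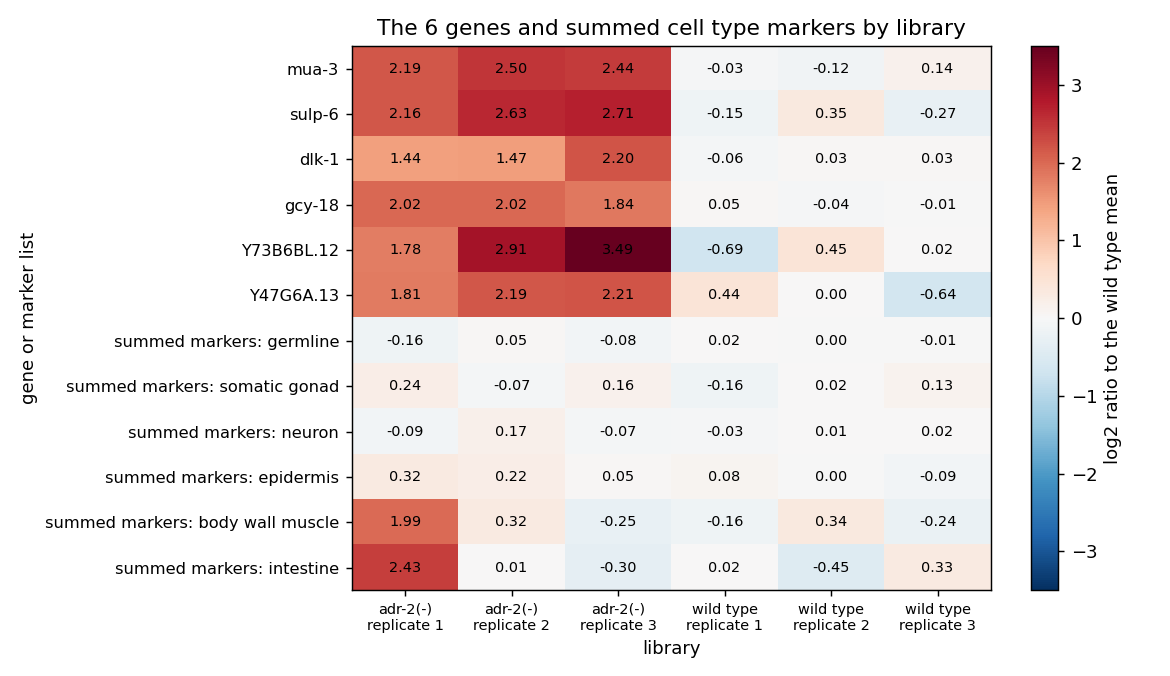
Log2 ratio of each library (columns) to the wild type mean for the 6 genes and for summed markers of 6 cell types (rows), coloured on 1 scale with the value printed in each cell. The 6 genes are between 1.44 and 3.49 in the adr-2(-) libraries, while summed muscle and intestine markers reach 1.99 and 2.43 in adr-2(-) replicate 1 alone.

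Positions with A-to-G mismatches were listed for the merged adr-2(-) libraries and for every wild type library on its own, each with its coverage in reads and a confidence score between 0 and 1. High-confidence positions, taken as those with a score of at least 0.75 in all 3 wild type lists and absent from the adr-2(-) list, numbered 1012 and lay in 72 genes, and 0 of the 6 genes were among these. The expression table holds 18206 genes, so few genes of any kind held such a position. Wild type reads were also few, with 72 in all on sulp-6, 98 on gcy-18 and 130 on Y47G6A.13. The absence therefore does not show that the 6 genes are unedited. The lists of wild type held 4 different positions in the 6 genes and the merged adr-2(-) list held 18, with 1 position in both. The adr-2(-) list had 8 positions in mua-3, 4 in dlk-1, 2 in gcy-18 and 4 in Y73B6BL.12. A score of at least 0.75 was reached by 8 of these in mua-3, 2 in gcy-18, 1 in Y73B6BL.12 and 0 in dlk-1. The authors state that the mutant has no A-to-I editing, and they removed positions called in it as false positives. The wild type lists had 3 positions in dlk-1 and 1 in Y73B6BL.12. No position was listed in sulp-6 or Y47G6A.13. All lay in coding sequence by the lists and by the annotation, on the strand of the gene.

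Of the 22 entries for these positions, 20 rested on 1 mismatched read, and the other 2, both in Y73B6BL.12 in adr-2(-), rested on 2 reads each of 156 and 164. In dlk-1, position 12569273 of chromosome I was mismatched in 1 of 93 reads in adr-2(-), against 1 of 14 reads in wild type replicate 1. The shares were 1.08% (exact 95% binomial interval 0.0272% to 5.85%) in adr-2(-) and 7.14% (0.181% to 33.9%) in wild type. The position was picked because both strains list it, each on 1 read, so these shares are given with no test. The other wild type positions in dlk-1, 12569753 and 12570296, had 1 of 18 and 1 of 13 reads in replicate 2. In Y73B6BL.12, position 6317381 of chromosome IV had 1 of 7 reads in wild type replicate 3. The coverage at these positions in the lists that omit them is unknown, so they were not compared. The intervals cover counting error only.

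In mua-3, the 8 positions of the adr-2(-) list lay between 10173894 and 10182593 of chromosome III, each with 1 mismatched read at a coverage of 6 to 23, and the last 6 lay at 84.8% of the gene's span or farther from its start. The wild type lists held no position in mua-3, where the 3 wild type libraries together had 410 reads on the gene, against 1298 in adr-2(-). The nearest high-confidence position was 222 kb away from mua-3, 31.6 kb from sulp-6, 176 kb from dlk-1, 65.8 kb from gcy-18, 184 kb from Y47G6A.13 and 2431 kb from Y73B6BL.12. Over the tested genes of chromosomes with such a position, the median distance was 727 kb, with quartiles of 242 and 2129 kb.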

How the data were processed

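RNA of dissected germlines was sequenced from 3 adr-2(-) and 3 wild type samples, grouped by their labels. The authors aligned reads with STAR 2.7.10b to the WS275 genome, called mismatches with SAILOR and divided gene counts by 1 factor per library with DESeq2. That deposited signal is a normalized count, and the counting program is not given in the sources used here. In the deposited site lists the coverage of a position is its read depth with the share of mismatched reads, and the confidence is a score. The deposited fold changes and p-values are the authors' own comparison and were not used.

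Dividing by the value of 1 read gave whole reads for 100% of the normalized counts. The tolerance was 0.01 of a read up to 100 reads and grew in proportion to the count above that. The highest counts pass under that rule whatever their value. Strains were compared with limma 3.58.1 (R 4.3.3) on log2(normalized count + 1) for genes with a mean of at least 10, with Benjamini-Hochberg adjustment over all 9779 of them. Genes with an adjusted p of 0.05 or less and a log2 fold change of 0.5 or more in size were called. edgeR 4.0.16 and DESeq2 1.42.0 were run on the recovered reads as alternatives, and limma was tested on simulated data. Other alternatives were a pseudocount of 5, no filter, TMM scaling, a replicate block, leaving out each library, neighbour windows of 10 and 50 kb, and other minimums for listed positions. Fisher's exact test (SciPy 1.17.1) was set for positions listed in both strains. Only 1 qualified, and being listed in both fixed its outcome, so no result of that test is given. Gene positions are from the Ensembl annotation of WBcel235. Where a p-value is given it comes from limma's test of the strain difference against the spread between samples of a strain, moderated by a trend over all genes tested.

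The 6 genes and all gene lists were chosen with earlier results of these data known. Named genes were the 6, the 3 genes most like each, called neighbours, overlapping protein-coding neighbours and called list genes. Some of the most abundant genes of each list, adr-2 and a leading marker of some cell types were also named. cls-3, seld-1, mup-4, let-805, ifb-1, mua-6, dex-1, noah-2, sulp-8, pmk-3, mkk-4, cebp-1, mak-2, rpm-1, gcy-8, gcy-23, ttx-1, col-19, elt-3, nhr-23, dpy-7, rol-6 and the uncalled neighbours were named after their values were seen. Libraries of the same strain all differed by more than sampling noise (chi-square per degree of freedom of 25.8 or more). Protein and genome sequences were not used here.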

Additional observations from a re-analysis of the deposited data

How the results depend on the processing

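The 29 genes called by limma became 19 with edgeR and 127 with DESeq2, and ranged between 8 and 64 over the fits that left out 1 library. The lowest count came without adr-2(-) replicate 3 or without wild type replicate 1 (8 each), with 9 without wild type replicate 2 and 16 without wild type replicate 3, and the highest without adr-2(-) replicate 2 (64). Of the 6 genes, 3 were called with the replicate block, and 1 to 5 over the fits that left out 1 library, with 1 without wild type replicate 1 or 2, 2 without adr-2(-) replicate 3 or wild type replicate 3, and 3 without adr-2(-) replicate 2. Same-numbered libraries deviated from their strain means with r = 0.03, -0.22 and 0.38, which does not settle whether the numbers pair the samples. The block changed the count of genes called to 25. DESeq2 called 1 gene of the pathway lists, mup-4, against 0 in limma, and a window of 50 kb held 1 called neighbour, W02D9.4, against 0 within 20 kb. The cause of these differences was not tested.

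None of the 72 fold changes of the 6 genes under an alternative was reversed, with values between 1.45 and 3.28, and 71 of them moved by less than the spread between replicates. The exception was gcy-18 with a pseudocount of 5, at 1.80. That count does not measure stability, since the fits with no filter and with the replicate block leave each fold change as it was. Leaving out 1 of 3 libraries can also shift a mean only by part of its spread. The alternatives for listed positions say nothing about stability, since 1 position of wild type replicate 1 qualified. A coverage of at least 20, a second wild type replicate, or leaving out wild type replicate 1 left none. The reads on sulp-6, gcy-18 and Y47G6A.13 are few in wild type, which limits the precision of their fold changes.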
